A study of Mus musculus with 8 samples.

Results

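Hepatic mRNA levels of 10 genes of the inflammatory cytokine and inflammasome pathways were examined in mice on the atherogenic diet (ATH) and in mice on standard chow (STD). The genes were Tnf, Il1a, Il1b, Il1rn, Il18, Casp1, Nlrp3, Il6, Osm and Il10. They were chosen by name, with earlier results of these data known. Total RNA was taken from the livers of male C57BL/6 mice (wild-type C57BL/6J in the study's methods), 14 to 17 weeks of age when the experiment began. The 4 STD mice received chow and the 4 ATH mice received a diet high in fat and cholesterol, which per the study's methods also contained cholate, each for 4 weeks. Each mouse gave 1 array (Agilent Whole Mouse Genome, Cy3), so each diet had 4 biological replicates, written below as STD1 to STD4 and ATH1 to ATH4. Of the 41174 probes on the array, 13 belonged to the 10 genes. For 9 genes the probes carried the gene's own symbol, and the Nlrp3 probe carried the older name Cias1 and was matched by its accession.

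TNF, IL-1 alpha and IL-1 beta are cytokines that start the inflammatory response, and in liver the resident macrophages, the Kupffer cells, are a known source of all of them. IL-1 beta and IL-18 are made as inactive precursors and are cut by caspase-1, the product of Casp1, inside the inflammasome, a complex that the sensor NLRP3 assembles after an injury signal. Il1rn encodes the IL-1 receptor antagonist, which occupies the IL-1 receptor without signaling. IL-6 and oncostatin M, the product of Osm, act on hepatocytes through the shared chain gp130 and induce acute phase proteins, and IL-10 restrains cytokine production by macrophages. The arrays measured mRNA in whole liver and give no information on cleavage or secretion.

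The probes that the results turn on are shown by their first 30 of 60 bases, as the array files give them, to make clear which part of a transcript was read where 2 probes of a gene gave different answers.
Il1rn A_52_P431159: tttcttgaccattcattttatcacttctaa
Il1rn A_51_P307166: attgctgggtacttacaaggaccaaatatc
Osm A_51_P291361: tgtcccctactaccactcaggacttcaagg
Osm A_52_P348614: agcactgtgtacaccacactggacagagtc
Nlrp3 A_52_P650540: cggccttacttcaatctgttgttcagctct
Il6 A_51_P217218: atattctgttacctagccagatggtttctt
In the coordinates of the array design, on the older mm7 assembly, the first Il1rn probe lies at chr2:24357916-24357975 and the second spans chr2:24354826-24355846, a stretch of 1021 bases that is longer than the probe, whose match is therefore interrupted in the genome. The Osm probes lie at chr11:4192146-4192205 and chr11:4191500-4191559, the Nlrp3 probe at chr11:59646597-59646656 and the Il6 probe at chr5:29052734-29052793. The Il1a probes lie at chr2:129041111-129041170 and chr2:129043842-129045576. The remaining probes are those of Tnf (chr17:33296067-33296126), Il1b (chr2:129105464-129105523), Il18 (chr9:50557947-50560075), Casp1 (chr9:5223467-5223969) and Il10 (chr1:130928485-130928544).

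Levels are given as the scaled signal, the log2 of the processed spot signal minus the 75th percentile of that array, so that 0 is the 75th percentile and each step of 1 is a doubling. The scaled signals of different probes are not comparable as amounts of RNA. A probe was called detected when it was well above background in 3 or more of the 4 livers of a diet, which held for 31056 of the 41174 probes and for 12 of the 13, the exception being the second Osm probe. At least 1 probe of each of the 10 genes was detected. A probe was called higher or lower when the diet difference passed limma at a false discovery rate of 5%, with p-values adjusted over all detected probes (two-sided, Benjamini-Hochberg). All STD arrays lay on one slide and all ATH arrays on another, and the effects of slide and diet cannot be told apart. Same-numbered arrays occupied the same slide position, and the value with the replicate block, a fit that pairs arrays by that number, is given wherever it changed a call.

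Atherogenic diet administration was accompanied by higher Tnf, Il1b, Il1rn, Casp1 and Il6 mRNA and lower Nlrp3 mRNA, while Il1a, Il18, Osm and Il10 did not pass the test (limma). Thus 5 of the 12 detected probes were called higher and 1 was called lower, which compares with 3.06% of all detected probes called higher and 4.94% called lower. Counted by genes, 5 of the 10 were higher and 1 was lower, beside 4.05% and 5.3% of the 16558 named genes when each was represented by its brightest probe. None of the 12 probes passed at 1%, the rate named in the study's methods, at which 0.528% of all detected probes passed, and 9 of the 12 had an unadjusted limma p below 0.05. By the unequal-variance test of the methods, 0 of the 12 passed 5% and 8 had an unadjusted p below 0.05. On 5 probes every ATH array lay above every STD array, beside 6.01% of all detected probes, and on 1 probe every ATH array lay below, beside 13.8%. The median difference of all detected probes was -0.15 on the log2 scale.

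**Figure D1:**
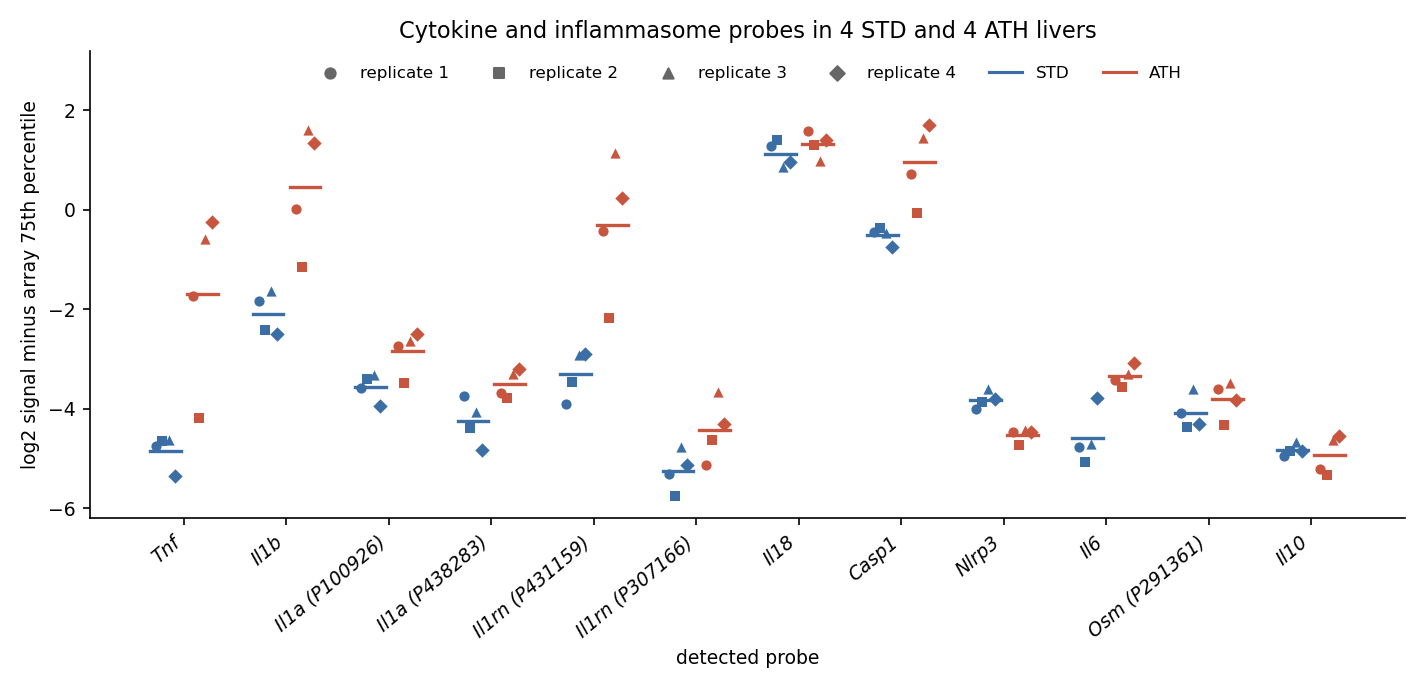
Scaled log2 signal (y axis, log2 signal minus the array's 75th percentile) of the 12 detected probes (x axis) in the 4 STD livers (blue) and 4 ATH livers (red), with a marker shape per replicate number and a line at each diet's mean. The diets do not overlap for Tnf, Il1b, Casp1, Nlrp3, Il6 and the first Il1rn probe, and ATH2 (red square) is the lowest ATH liver on 10 of the 12 probes.

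Tnf, an early cytokine of inflammation, was higher in the ATH livers. Its scaled signal was -4.75, -4.66, -4.63 and -5.36 in the STD livers and -1.73, -4.19, -0.59 and -0.24 in the ATH livers. All ATH livers lay above all STD livers, but ATH2 stood only 0.43 above the highest STD liver. The mean rose from -4.85 ± 0.34 to -1.69 ± 1.79 (SD, n = 4), a difference of 3.16 ± 0.75 (SE) on the log2 scale, or 8.93-fold (95% interval 1.46 to 4.86 in log2, limma adjusted p = 0.041). With the replicate block the adjusted p was 0.065, so the call was lost. With normexp background correction the difference was 1.49 with an adjusted p of 0.038. The probe was well above background on 3 of the 4 STD arrays, and the smallest and largest median spot signals were 10.4 and 18.9 intensity units on the STD arrays against 30.3 and 594 on the ATH arrays. Since whole liver was measured, a change in the number of cells of a type and a change in RNA per cell cannot be told apart here or in any result below.

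Il1b, the main secreted IL-1 of macrophages, was also higher. Its scaled signal was -1.84, -2.42, -1.64 and -2.50 in the STD livers and 0.02, -1.15, 1.61 and 1.34 in the ATH livers, with no overlap and with ATH2 again the lowest ATH liver. The difference was 2.55 ± 0.56 (SE, n = 4 per diet), or 5.87-fold (limma adjusted p = 0.034).

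Il1a was measured by 2 probes that gave nearly equal differences, and neither passed the test. On A_52_P100926 the scaled signal was -3.59, -3.41, -3.31 and -3.94 in the STD livers and -2.74, -3.48, -2.64 and -2.50 in the ATH livers. Here ATH2 fell within the STD range and the other ATH livers lay above it. The difference was 0.72 ± 0.23 (SE, limma adjusted p = 0.087) and, without ATH2, 0.94 with an adjusted p of 0.015. On A_51_P438283 the difference was 0.76 ± 0.24 (limma adjusted p = 0.084), with STD livers from -4.82 to -3.75 and ATH livers from -3.78 to -3.20. This probe did not pass without ATH2 (0.86, adjusted p = 0.067), and neither probe passed with any other array left out. Without scaling both Il1a probes passed, with differences of 1.17 and 1.21 and adjusted p of 0.026 and 0.024. With spike-in scaling only A_51_P438283 passed (adjusted p = 0.049). With normexp neither passed, at differences of 0.24 and 0.09 and adjusted p of 0.118 and 0.457.

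Il1rn, the natural inhibitor of both IL-1 forms, was called higher on 1 of its 2 probes. On A_52_P431159 the scaled signal was -3.90, -3.46, -2.92 and -2.90 in the STD livers and -0.42, -2.17, 1.15 and 0.23 in the ATH livers. The diets did not overlap, and the difference was 2.99 ± 0.61 (SE, n = 4 per diet), or 7.96-fold (limma adjusted p = 0.029). On A_51_P307166, the probe that spans 1021 bases, the scaled signal was -5.32, -5.76, -4.77 and -5.13 in the STD livers and -5.12, -4.64, -3.66 and -4.31 in the ATH livers, and the diets overlapped. Its difference was 0.81 ± 0.32 (limma adjusted p = 0.137). This probe was well above background on 2 STD arrays and 4 ATH arrays, so it entered the test only through the ATH livers, and the 2 Il1rn probes disagree on the size of the change.

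The genes of the inflammasome itself did not move in one direction. Casp1, which encodes the protease that cuts the IL-1 beta and IL-18 precursors, was -0.45, -0.37, -0.46 and -0.74 in the STD livers and 0.72, -0.06, 1.45 and 1.71 in the ATH livers. All ATH livers lay above all STD livers, ATH2 by 0.31. The difference was 1.46 ± 0.35 (SE, n = 4 per diet), or 2.75-fold (limma adjusted p = 0.041), and with the replicate block the adjusted p was 0.068.

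Nlrp3, the sensor, was lower. Its scaled signal was -4.01, -3.86, -3.61 and -3.81 in the STD livers and -4.46, -4.74, -4.43 and -4.47 in the ATH livers, with every ATH liver below every STD liver. The probe had 1 spot per array and a low signal, with a mean of -3.82 in the STD livers and -4.52 in the ATH livers. It was well above background on 4 STD arrays and 4 ATH arrays. The difference was -0.70 ± 0.13 (SE, n = 4 per diet), a 1.63-fold lower level (limma adjusted p = 0.024). This call depended on the scaling between arrays, since the 75th percentile itself was 0.45 higher (log2) on the ATH arrays. The difference was -0.54 with quantile normalization (adjusted p = 0.060), -0.39 with spike-in scaling (adjusted p = 0.162) and -0.25 without scaling (adjusted p = 0.271). These settings placed the median of all detected probes at -0.05, 0.16 and 0.30. Spike-in scaling and no scaling differ from the main fit only by a constant per array. The distance of Nlrp3 from that median is therefore the same there as in the main fit and is no separate test.

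Il18, the other substrate of caspase-1, was 1.29, 1.40, 0.87 and 0.95 in the STD livers and 1.59, 1.30, 0.98 and 1.41 in the ATH livers. The diets overlapped over most of their range. The difference was 0.19 with a 95% interval of -0.21 to 0.60 (limma adjusted p = 0.506), so a change of 1 on the log2 scale in either direction lay outside the interval. Without scaling the difference was 0.64 with an adjusted p of 0.042.

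Il6, which drives the acute phase response of hepatocytes, was called higher at a low signal. The scaled signal was -4.77, -5.06, -4.71 and -3.78 in the STD livers and -3.43, -3.56, -3.30 and -3.08 in the ATH livers. The ATH livers were close together and above all STD livers, and STD4 came within 0.22 of the lowest of them. The difference was 1.24 ± 0.26 (SE, n = 4 per diet), or 2.36-fold (limma adjusted p = 0.031), and without STD4 it was 1.505 with an adjusted p of 0.011. With normexp background correction it was 0.27 with an adjusted p of 0.100, and the call was lost.

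Osm and Il10 gave no call. The detected Osm probe was -4.08, -4.37, -3.60 and -4.31 in the STD livers and -3.59, -4.33, -3.48 and -3.83 in the ATH livers, a difference of 0.28 with a 95% interval of -0.25 to 0.81 (limma adjusted p = 0.453). The second Osm probe was well above background on 0 STD arrays and 2 ATH arrays and was not tested. Il10 was -4.95, -4.84, -4.66 and -4.86 in the STD livers and -5.20, -5.34, -4.62 and -4.55 in the ATH livers. ATH1 and ATH2 lay below all STD livers and ATH3 and ATH4 above them. The mean difference of Il10 was -0.10 with a 95% interval of -0.55 to 0.35 (limma adjusted p = 0.767), and its sign turned without scaling, with spike-in scaling and with quantile normalization, at 0.35, 0.21 and 0.11.

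**Figure D2:**
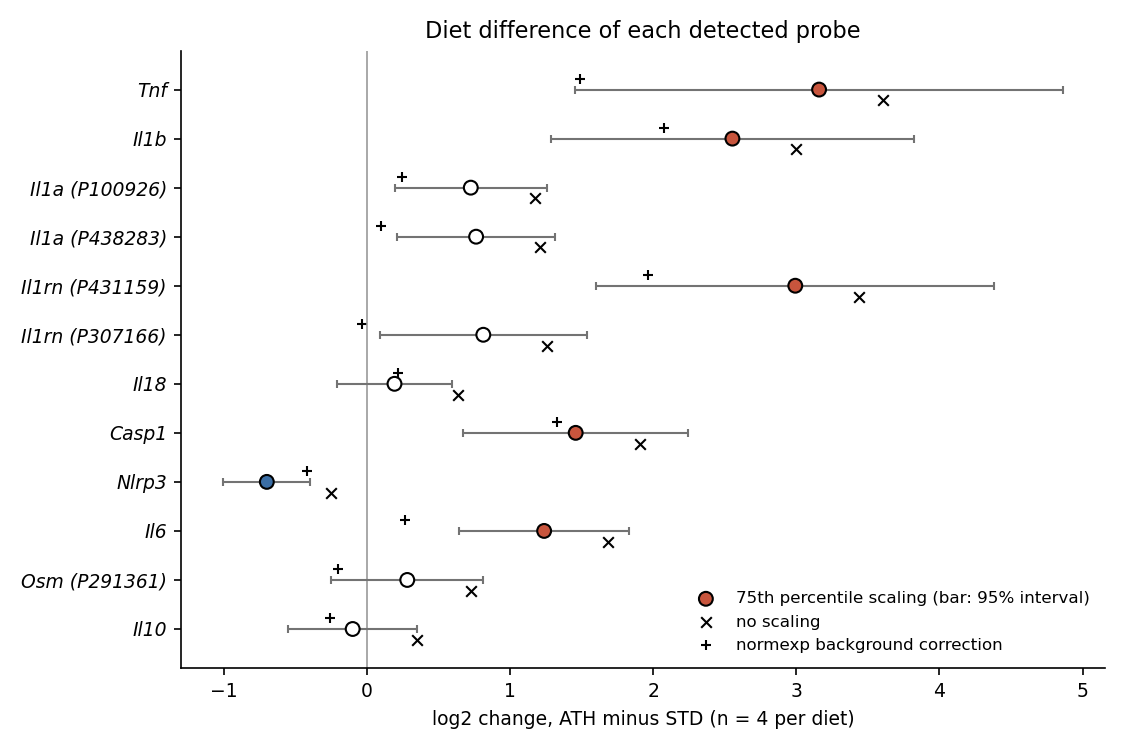
Diet difference (x axis, log2, ATH minus STD) of each detected probe (y axis), with circles and 95% intervals from limma after 75th percentile scaling, crosses without scaling and plus signs with normexp background correction. Red marks the 5 probes called higher, blue marks Nlrp3, called lower, and white marks the 6 probes not called, and the Il6 value with normexp, 0.27, lies below its interval of 0.64 to 1.83.

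For 5 of the genes the probe was printed 10 times on each array, so the error of a single measurement could be read directly. For Il1b the 10 spots of an array differed by a median SD of 0.0589 (log2), and at all 10 spot positions the ATH livers lay above the STD livers without overlap. For Tnf the median SD was 0.161, the difference by position ran from 2.92 to 3.33, and 8 of the 10 positions showed no overlap. Il18 had a median SD of 0.0579 and a difference of 0.15 to 0.22 by position. The spread between spots was thus small beside the spread between ATH livers, for Tnf an SD of 1.79 and for Il1b an SD of 1.28.

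The Il6 spots were far less even. Their median SD was 0.71, larger than that of 99.5% of the 207 detected probes printed 10 times, whose median was 0.0806. The mean over ATH livers was higher at all 10 positions, by 0.28 to 2.13, and 6 positions showed no overlap. Spot signals of Il6 ran from 5.07 to 54.7 intensity units over the STD arrays and from 19.0 to 176 over the ATH arrays. Il10 had a median SD of 0.39, and 3 of its 10 positions had a higher mean on the ATH arrays. Spots of one array share a mouse and were averaged before any test.

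**Figure D3:**
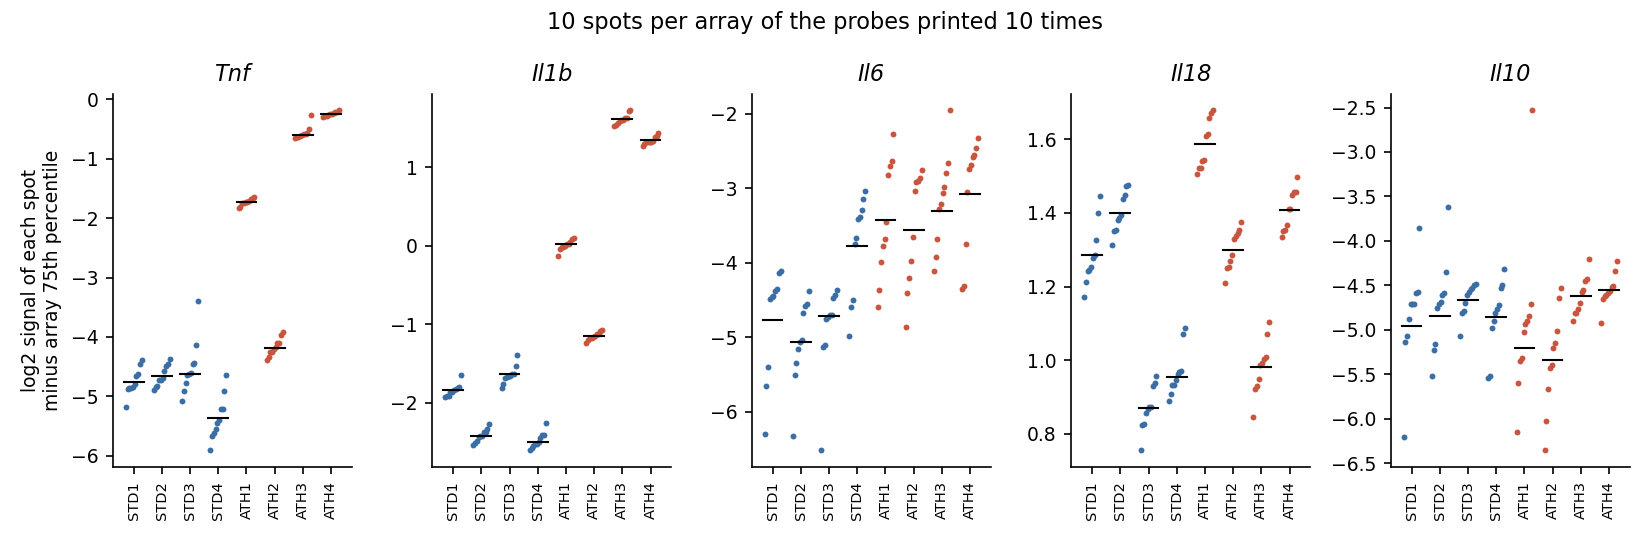
Scaled log2 signal of each of the 10 spots (points, sorted within an array) of Tnf, Il1b, Il6, Il18 and Il10 on every array (x axis), blue for STD and red for ATH, with a line at the array's mean and a y axis of its own in each panel. The Il1b spots of an array lie close together (median SD 0.0589) and the Il6 spots are spread (median SD 0.71).

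The ATH livers differed among themselves in the same order for most of the genes. ATH2 was the lowest ATH liver on 10 of the 12 detected probes and on all 5 probes called higher, and ATH3 or ATH4 was the highest on 11 of the 12. Above the STD mean, Tnf stood 0.66 higher in ATH2 and 3.12, 4.25 and 4.61 higher in ATH1, ATH3 and ATH4. Il1b stood 0.95 higher in ATH2 and 2.12, 3.71 and 3.44 higher in the others. Il6 was the most even, at 1.02 higher in ATH2 and 1.15, 1.28 and 1.498 higher in the others.

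Leaving out ATH2 lowered the limma adjusted p to 0.0018 for Tnf, 0.0031 for Il1rn, 0.0046 for Il1b and 0.0049 for Casp1, and the Tnf difference became 3.99. Leaving out any other array ended the higher calls, except that Il6 stayed called without STD4. Over these 7 settings the adjusted p of Tnf, Il1b, the called Il1rn probe and Casp1 lay between 0.050 and 0.098, and their differences stayed positive. Nlrp3 kept its call without ATH1 or ATH2 and lost it without each of the other 6 arrays, at an adjusted p of 0.051 to 0.068.

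The macrophage and Kupffer cell markers followed the same order, as did the neutrophil and the T and NK cell markers below. All 18 listed macrophage and Kupffer cell markers were detected and had a positive difference. Of them 9 were called higher and 0 lower, and the median difference was 1.57, beside -0.14 over all named genes. Called markers included Marco (3.43), Trem2 (3.16) and Lyz2 (2.27, each log2), and Gpnmb. The Gpnmb probe was well above background on 0 STD arrays and entered the test only through the ATH livers. It was at least 32.4-fold higher, taking the dimmest detectable signal of each STD array as its limit. That bound did not hold with normexp, where the Gpnmb difference was 3.004 (log2). When arrays were paired by the block, 6 markers were higher, and Cd68, Aif1 and Ccr2 lost the call (adjusted p = 0.055, 0.074 and 0.055). The log2 of the summed scaled signals lay between 6.77 and 6.98 in the STD livers and was 8.46, 7.68, 9.55 and 9.73 in ATH1 to ATH4. The part of these markers in the cytokine results was not tested. Of 8 detected neutrophil markers 0 were called by limma and 4 had an unadjusted p below 0.05 (median 0.79; Elane, a defining marker, was not detected), and the summed signal was 0.72 to 1.77 in STD and 1.71 to 3.87 in ATH livers. The block raised 2 neutrophil markers past the threshold, S100a8 (1.93, adjusted p = 0.027) and S100a9 (1.73, adjusted p = 0.030), the latter named after its values were seen. The 9 T and NK cell markers (median 1.06; 0.12 to 0.56 in STD and 0.19 to 2.43 in ATH livers) and the 4 detected B cell markers (median 0.25) also gave 0 limma calls, with or without the block, and with an unadjusted p below 0.05 for 6 and 0. By the unequal-variance test these 3 lists gave 0 calls as well, with an unadjusted p below 0.05 for 3, 2 and 0 markers. The 4 neutrophil markers in the limma count included Cxcr2, whose difference was negative (-0.48). The 6 T and NK cell markers in that count included Cd3e, also negative (-0.71). Both were named after their values were seen. The difference was negative for 1 of the 8 neutrophil and 3 of the 9 T and NK cell markers. With normexp the neutrophil median was 0.09, with 2 markers called higher and 1 lower. For T and NK cells it was 0.64, with 1 and 1. Relative to the STD mean, the summed neutrophil markers stood at 0.83, 0.38, 2.53 and 2.05 in ATH1 to ATH4. The summed T and NK cell markers stood at 1.01, -0.11, 1.72 and 2.12, so the order of the ATH livers was not particular to the macrophage markers. Of 9 hepatocyte markers, which were high in every liver, 0 were higher and 2 were lower, Tat (-1.05) and Ass1 (-0.70), and their summed signal was 11.6 in each STD liver and between 10.97 and 11.44 in the ATH livers. Their median difference was -0.30, and it was 0.14 without scaling, where Ass1 was not called (adjusted p = 0.203). Ass1 also lost its call with the replicate block (adjusted p = 0.068).

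**Figure D4:**
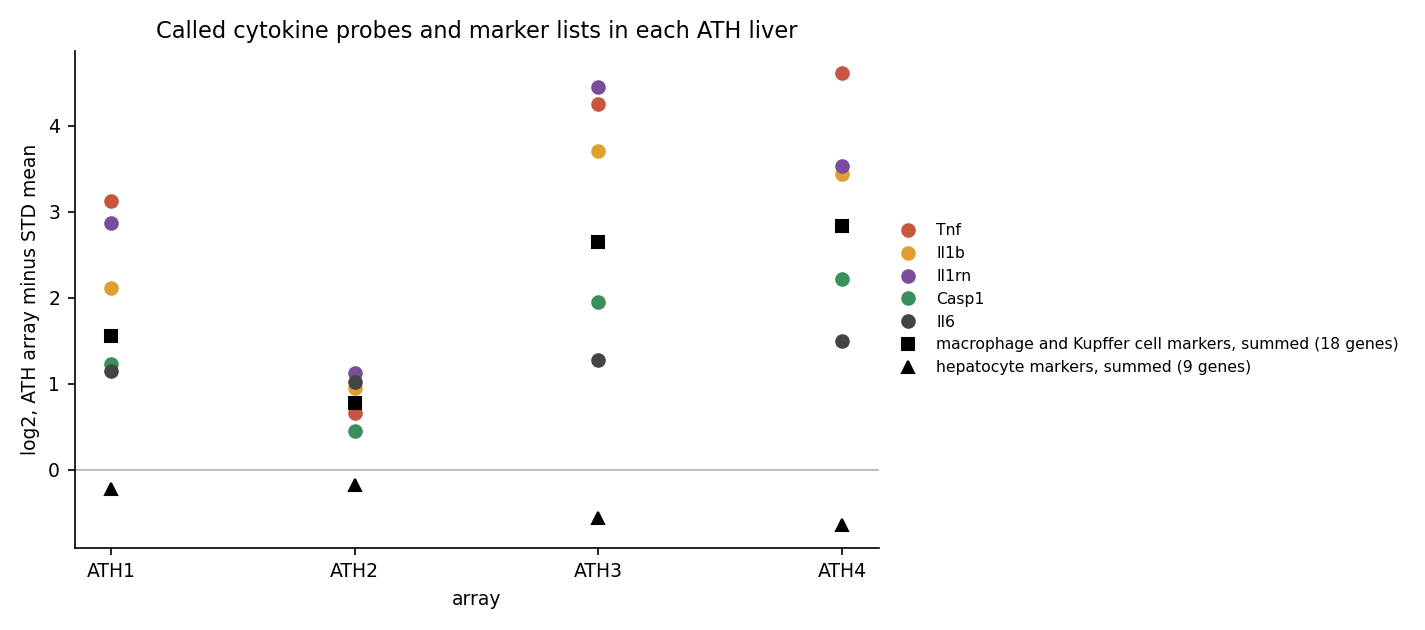
Scaled log2 signal of the 5 probes called higher (coloured circles) and summed signal of the macrophage and Kupffer cell markers (black squares, 18 genes) and hepatocyte markers (black triangles, 9 genes) in each ATH liver (x axis), each minus its mean over the 4 STD livers (y axis, log2). In ATH2 the macrophage markers stand 0.78 above the STD mean and Tnf 0.66 above it, and in ATH4 these are 2.83 and 4.61.

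Differences between 2 probes on the same array do not depend on any scaling between arrays, and they showed unequal change within the pathway. They are given as descriptions, since only their shift between diets, and not their size, can be read. Casp1 minus Nlrp3 was 3.07 to 3.55 in the STD livers and 4.68 to 6.17 in the ATH livers, without overlap. Il1b minus its fellow caspase-1 substrate Il18 was -3.82 to -2.51 and then -2.45 to 0.63, the diets being separated by only 0.057. Il1b minus Il1a (A_52_P100926) was 0.99 to 1.75 and then 2.33 to 4.25, and Tnf minus Il10 was -0.50 to 0.20 and then 1.15 to 4.31, again without overlap. Il1b minus its antagonist Il1rn overlapped between the diets, at 0.40 to 2.06 and 0.44 to 1.11, as did Tnf minus Il1b, at -2.99 to -2.24 and -3.04 to -1.58.

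The rest of the pathway was read from lists that were also chosen with earlier results of these data known. They held 95 detected genes other than the 10, each represented by its brightest probe. Of these 13 were called higher and 5 lower, and the median difference was 0.22, beside -0.14 over all named genes. The lower calls were 5 of 95, near the 5.3% of all named genes called lower, and 4.05% of all named genes were called higher. With the replicate block 4 were higher and 2 lower.

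Among the 11 detected inflammasome sensors, 4 were higher and 2 were lower. Mefv, which encodes pyrin, differed by 3.09 ± 0.77 (SE, limma adjusted p = 0.045). Naip1, Naip2 and Naip5, sensors of bacterial flagellin and secretion systems, differed by 1.81, 1.05 and 1.03, but these are close paralogs and their probes may read more than 1 of them. The Naip1 probe was well above background on 2 STD arrays and entered the test through the ATH livers, and its difference was 0.33 with normexp. Aim2, a sensor of DNA in the cytosol, differed by -1.17 and Nlrp10 by -0.69, and neither passed without scaling. With the replicate block only the Aim2 call held (adjusted p = 0.027), and the other 5 had adjusted p of 0.051 to 0.084. The Aim2 probe was dim, however. It was well above background on 3 STD arrays and 2 ATH arrays, so it entered the test only through the STD livers, where it was higher.

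Among the 11 inflammasome adaptors, caspases and effectors, Casp12 (1.45) and Panx1 (1.36), a channel that releases ATP, were higher, with adjusted p of 0.064 and 0.055 with the replicate block. Casp4, the mouse sensor of cytosolic lipopolysaccharide often called caspase-11, differed by 1.71 and missed the threshold (limma adjusted p = 0.064).

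Among the 8 detected receptors and inhibitors of IL-1 and IL-18, Il18bp, the soluble inhibitor of IL-18, had the lowest adjusted p of the 95 genes. It was between 0.15 and 0.40 in the STD livers and between 1.37 and 2.72 in the ATH livers, a difference of 1.81 ± 0.25 (SE, limma adjusted p = 0.010). Il1r1, the signaling IL-1 receptor, differed by 1.47 ± 0.36 (limma adjusted p = 0.044). Both held with the replicate block, at 0.037 and 0.047. Of the 9 transducers of the IL-1 receptor 0 passed limma or the unequal-variance test, with an unadjusted p below 0.05 for 1 and 0, the largest difference being that of Irak3, a brake on this receptor, at 1.98 (adjusted p = 0.069).

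Among the 13 TNF ligands, receptors and transducers, the ligands Tnfsf14 (1.02) and Tnfsf9 (1.48) were higher. The Tnfsf9 probe was well above background on 0 STD arrays, and against the same limit as for Gpnmb it was 1.19-fold higher. Tnfsf14 lost its call with the replicate block (adjusted p = 0.055), and Tnfsf9 (0.046 with the block) had a difference of -0.14 with normexp. Traf1, a TNF receptor adaptor, differed by 2.39 with an adjusted p of 0.051. Of the 12 genes of the IL-6 and oncostatin M family 1 was higher and 2 were lower. Lifr, a receptor chain that pairs with gp130, fell by 1.17 (adjusted p = 0.011; 0.021 with the replicate block). The other calls were Jak2 (0.65), a kinase of this pathway, and Il11ra1 (-0.49), both named after their values were seen and both lost with the replicate block (adjusted p = 0.074 and 0.055). Without scaling Il11ra1 differed by -0.05 (adjusted p = 0.809). Osmr, the oncostatin M receptor, differed by 1.18 with an adjusted p of 0.061, and it was called with the replicate block (adjusted p = 0.049).

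Il10rb, a chain of the IL-10 receptor, was the 1 called gene of 7 in the IL-10 family, at 1.01 (limma adjusted p = 0.031; 0.053 with the replicate block), beside Il10ra, the ligand-binding chain, at 1.83 (adjusted p = 0.064). Of 10 other detected cytokines, Csf1, the growth factor of macrophages, was higher at 0.97 (adjusted p = 0.044; 0.065 with the replicate block). Il13 was lower at -0.60 (adjusted p = 0.043; 0.067 with the replicate block; -0.15 and 0.587 without scaling) and is named after its values were seen. Ifng had the largest difference of these 10, 1.24, and did not pass (adjusted p = 0.189).

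**Figure D5:**
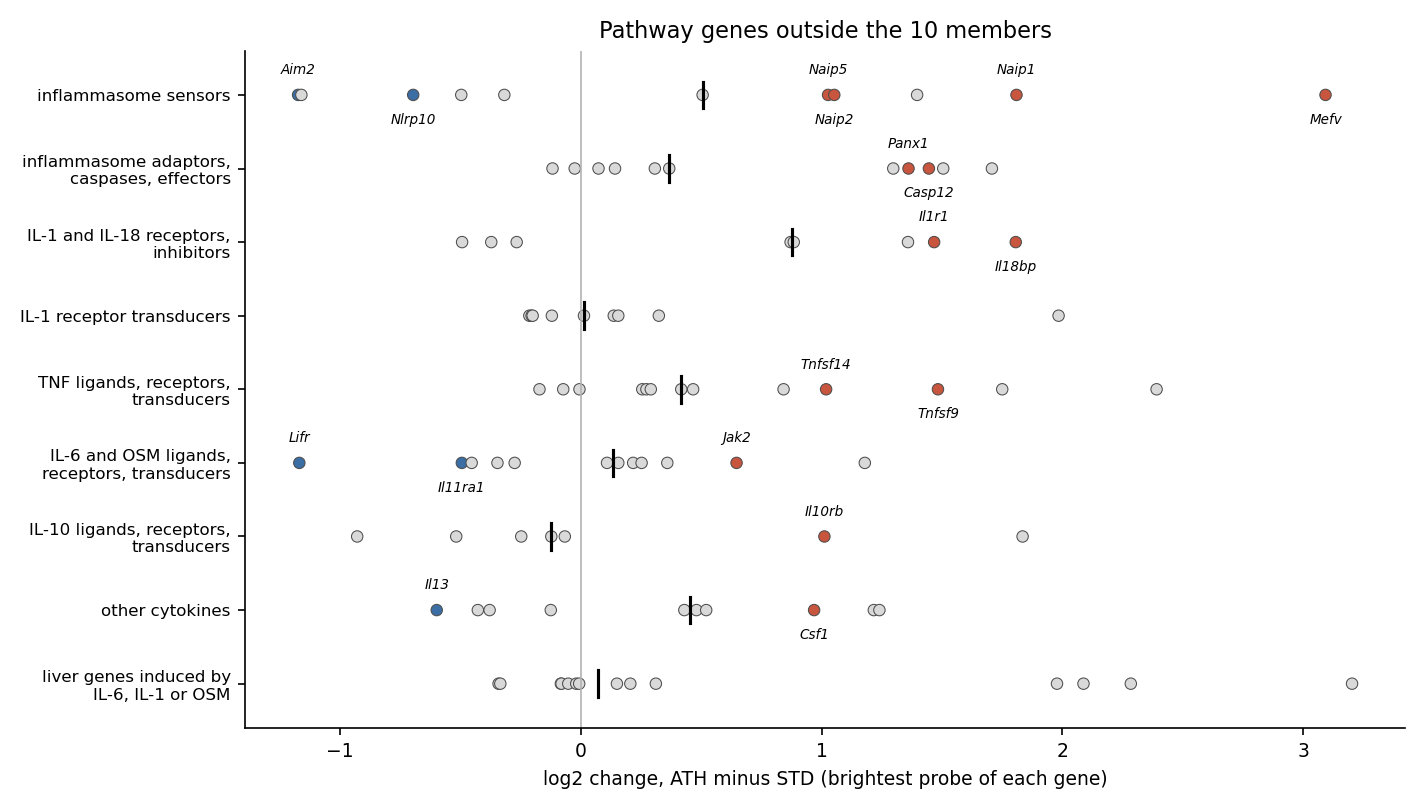
Diet difference (x axis, log2, ATH minus STD) of the 95 detected pathway genes, each a point, by list (y axis), with red for the 13 called higher, blue for the 5 called lower, grey for the rest and a black bar at each list's median. Called genes are named beside their points, and Mefv at 3.09 is the largest called difference.

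The liver genes that IL-6, IL-1 and oncostatin M induce gave a result that turned on a single STD liver. Of 14 such genes 0 were called by limma and 2 had an unadjusted p below 0.05, as by the unequal-variance test, and 0 were called with the replicate block or without scaling. By limma those 2 were both lower, namely Fgb (-0.33, unadjusted p = 0.030) and Fgg (-0.34, unadjusted p = 0.026), named after their values were seen. The difference was positive for 7 of the 14 and negative for 7. STD4, the STD liver with the highest Il6, was the highest STD liver for 12 of the 14. Lcn2, the largest difference in this list at 3.201 (adjusted p = 0.202), was -3.80, -3.22, -3.22 and 3.44 in the STD livers and 1.49, -0.35, 1.996 and 2.87 in the ATH livers. The serum amyloid genes, named after their values were seen, had the same form. Saa1 was 4.92, 5.42, 5.77 and 10.1 in the STD livers and 8.30 to 8.93 in the ATH livers, and STD4 exceeded every ATH liver. Without STD4, 4 of the 14 were higher, namely Saa1 (3.27, limma adjusted p = 0.0035), Saa2 (3.06, 0.0030), Saa3 (3.65, 0.0039) and Lcn2 (4.92, 0.018), and 0 were lower. STD4 was singled out by its values on these same genes. The larger differences follow from that choice, and these p-values are descriptions only. Without ATH2, 0 of the 14 were called.

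The genes whose pattern over the 8 arrays was most like that of Tnf and Il1b were picked by Pearson correlation among 16540 named genes with a detected probe. For Tnf these were Spic (r = 0.998), Acod1 (0.998), Klrd1 (0.997), Dusp2 (0.996) and Fut7 (0.996). For Il1b they were Cytip (r = 0.996), Fam111a (0.995), P2ry10 (0.994), Dock11 (0.993) and Marcks (0.993). The 8 points share 2 diets, 2 slides and the wide spread of the ATH livers, so the coefficients are descriptions only.

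The 250 bases before the transcription start of 3 cytokine genes called higher are shown, with matches to 3 short motifs in capitals. The windows of Il1rn and Casp1, also called higher, are not shown, and shared regulation of these genes was not tested. The sequences are RefSeq's on GRCm38.p6, 5' to 3' on the gene's own strand.
Tnf (chr17:35202008-35202257, minus strand): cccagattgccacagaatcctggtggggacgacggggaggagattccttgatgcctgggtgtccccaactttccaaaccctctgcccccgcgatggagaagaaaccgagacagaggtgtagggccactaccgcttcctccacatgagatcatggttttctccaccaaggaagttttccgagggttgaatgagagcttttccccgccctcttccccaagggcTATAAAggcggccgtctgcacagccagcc
Il1b (chr2:129371140-129371389, minus strand): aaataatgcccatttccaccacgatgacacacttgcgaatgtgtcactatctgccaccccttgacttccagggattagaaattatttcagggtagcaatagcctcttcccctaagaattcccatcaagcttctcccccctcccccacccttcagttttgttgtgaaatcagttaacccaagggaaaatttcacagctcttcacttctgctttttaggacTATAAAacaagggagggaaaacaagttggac
Il6 (chr5:30012864-30013113, plus strand): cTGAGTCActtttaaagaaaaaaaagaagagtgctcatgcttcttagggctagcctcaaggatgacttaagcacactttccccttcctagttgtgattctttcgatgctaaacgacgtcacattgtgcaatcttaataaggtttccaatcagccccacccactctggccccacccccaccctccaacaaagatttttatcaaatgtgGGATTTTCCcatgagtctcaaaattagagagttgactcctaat
The motifs, searched on both strands, were a kappaB form (GGNNTTTCC), an AP-1 form (TGANTCA) and a TATA form (TATAAA), which occur in 4.93%, 6.75% and 12.4% of the 32851 promoter windows of the same length. Counted as the distance from the first base of the match to the start site, Tnf held the TATA form 29 bases and Il1b 31 bases upstream, and Il6 held the kappaB form 43 bases and the AP-1 form 249 bases upstream. Of the 11 windows of 8 of the genes in the RefSeq table, the kappaB form was in 4, the AP-1 form in 3 and the TATA form in 4. Osm and Il10 had no window in the table. The kappaB form was present in both windows of Nlrp3, which was lower, and these matches describe letters in a window, not binding.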

How the data were processed

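Liver RNA of 4 STD and 4 ATH mice was hybridized to 1 array each. The authors ran Agilent Feature Extraction version 9.5, and the deposited array files hold background-subtracted, detrended spot intensity values. A deposited log2 table made in GeneSpring equals the log2 intensity plus constants per array and probe for 100% of its probes within 0.001, with scaling and baseline unnamed, and was an alternative.

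Control and outlier-marked spots were left out, spots of a probe were averaged, and log2 intensity minus the array's 75th percentile was fitted in limma version 3.58.1 (R version 4.3.3, two-sided, Benjamini-Hochberg over 31056 probes, no covariate). Summaries used Python version 3.11.15. The fit was run on simulated data in which both diets had the same spread. That run does not show how the fit behaves where the ATH livers spread more widely, as for Tnf (SD 0.34 in STD and 1.79 in ATH livers). With 4 arrays a diet, their number limits the precision. Genes were named by accession (22951 probes), symbol (6659) or synonym (3109), and 8455 probes stayed unnamed. Members and lists were chosen with earlier results of these data known. Named from the lists were the 30 called genes of largest change and each list's largest; 35 were called.

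Same-numbered arrays share a slide position. The correlations of their residuals after the diet means were 0.1001, 0.2296, 0.1815 and 0.1766. Every array was matched best by the same-numbered array of the other diet, except ATH1, whose best match was STD2. The main fit left the arrays unpaired, and the block, which pairs them by number, was run beside it. Alternatives were normexp (offset 50), other scalings, the deposited table, the filter, the block, the test and each array left out.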

Additional observations from a re-analysis of the deposited data

Results flagged for a closer look

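Among the values of the 53 probes described, 3 of 106 groups of 4 livers held 1 liver far from the other 3 by Dixon's test, and chance alone gives about 1 in 20. Tnf in STD4, at -5.36, lay below the nearest STD liver at -4.75, and this is the STD array on which the Tnf probe was not well above background. Nlrp3 in ATH2, at -4.74, lay below the nearest ATH liver at -4.47. Lcn2 in STD4, at 3.44, lay far above the nearest STD liver at -3.22.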

How the results depend on the processing

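All 5 probes called higher kept a positive difference and Nlrp3 kept a negative one under every alternative run. The slide cannot be told apart from the diet, and low signals limit Tnf in STD livers, Nlrp3, Il6, Il10 and Osm.

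The count of member genes called higher (5) was 1 with no detection filter, 3 with the replicate block, 0 by the unequal-variance test, 0 at a false discovery rate of 1% and 0 to 6 when each array was left out. The count called lower (1) was 0 with quantile normalization, no scaling, spike-in scaling, the unequal-variance test and 1%, and 0 to 1 with an array left out. Of all detected probes 2483 were called, against 6394 with normexp, 7364 with no scaling, 1086 with no filter, 1322 with the replicate block, 22 by the unequal-variance test, 164 at 1% and 394 to 3979 with an array left out. The share of calls that were higher was 38.2%, against 55.0% with median scaling, 54.3% with quantile normalization, 94.9% with no scaling, 86.1% with spike-in scaling and 18.9% with normexp.

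Pathway genes called higher (13) numbered 38 with no scaling, 20 with spike-in scaling, 3 with no filter, 4 with the replicate block and 1 to 25 with an array left out. Those called lower (5) numbered 10 with normexp, 1 with median, quantile, no or spike-in scaling or no filter, 2 with the replicate block and 1 to 3 with an array left out. Marker genes called higher (14) numbered 25 with normexp, 44 with no scaling, 25 with spike-in scaling, 5 with no filter and 3 to 30 with an array left out. Those called lower (3) numbered 6 with normexp, 1 with no scaling, spike-in scaling or the replicate block and 1 to 3 with an array left out.

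With no filter Tnf (3.16, adjusted p = 0.066), Il1b (2.55, 0.058), Casp1 (1.46, 0.066) and Il6 (1.24, 0.054) lost the call, since more probes were tested. With the replicate block Tnf (3.16, 0.065) and Casp1 (1.46, 0.068) did, and no other member call changed. Il6 with normexp (0.27) and Nlrp3 with quantile normalization (-0.54), no scaling (-0.25) and spike-in scaling (-0.39) did as well. With an array left out the differences were 2.68 to 3.99 for Tnf, 2.17 to 3.09 for Il1b, 2.51 to 3.61 for Il1rn, 1.21 to 1.79 for Casp1, -0.76 to -0.63 for Nlrp3 and 1.08 to 1.505 for Il6. Signs turned for the uncalled Il1rn probe (-0.037) and Osm (-0.20) with normexp, and for Il10 with quantile normalization (0.11), no scaling (0.35), spike-in scaling (0.21) and without ATH2 (0.036; -0.23 to 0.036 with an array left out). The causes were not tested.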

Other observations

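Markers of the remaining liver cell types were also read. Of 8 stellate cell markers all had a positive difference and 1 was called higher, Col3a1, a fibrillar collagen, at 1.74 (limma adjusted p = 0.033), while Col1a1 differed by 2.22 without passing (adjusted p = 0.091). Of 6 endothelial markers Lyve1 was higher at 1.21 (adjusted p = 0.036), and of 4 cholangiocyte markers Sox9 was higher at 1.04 (adjusted p = 0.039). Of 5 detected dendritic cell markers 2 were higher, Itgax, which macrophages also express, at 3.91 (adjusted p = 0.029) and Flt3, and 1 was lower, Xcr1, the last 2 named after their values were seen. With the replicate block Flt3 and Xcr1 lost the call (adjusted p = 0.053 and 0.050), Flt3 differed by 0.10 with normexp (adjusted p = 0.348) and Xcr1 by -0.22 without scaling (adjusted p = 0.203).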
